A study of Mus musculus with 4 samples.

Results

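The genes described here are 33 enzymes and regulators of the tricarboxylic acid (TCA) cycle, of the entry of pyruvate into it, and of the reactions that feed and drain it. They were chosen by symbol, as the rows of the count table that carry the names of a fixed list, and all 33 were found among the 24062 genes of the table. All 33 also passed the filter on low counts that left 15762 genes to test. By the known location of their products, 27 were grouped as mitochondrial and 6 (Aco1, Idh1, Mdh1, Me1, Acly and Got1) as cytosolic.

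RNA sequencing was performed on mouse retinas of embryonic stage E13.5 on a mixed C57BL/6 and 129 background. Libraries WT 1 and WT 2 were made from wildtype retinas, and libraries Nrf1-CKO 1 and Nrf1-CKO 2 from Nrf1 f/f;Six3-Cre retinas. In these mutants, exon 4 of Nrf1 is flanked by loxP sites and removed by Six3-Cre, which acts in retinal progenitor cells and begins in the central retina. Each library held RNA pooled from retinas of several littermates, so that differences between single embryos are averaged within a library. With 2 libraries per genotype, and no source that says whether the pools of a genotype were separate litters, the p-values measure only the spread between these libraries.

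The TCA cycle oxidises acetyl-CoA in the mitochondrial matrix and passes electrons to the respiratory chain. Pyruvate enters it through the pyruvate dehydrogenase complex, which is switched off by phosphorylation and on again by dephosphorylation. Citrate, malate and aspartate are also handled by cytosolic enzymes, which make acetyl-CoA for lipids, NADPH for reductive synthesis, and the malate and aspartate that shuttle reducing power across the mitochondrial membrane. Nrf1 is a transcription factor known for driving nuclear genes of the respiratory chain and of mitochondrial biogenesis, and proliferating neural progenitors are known to rely strongly on glycolysis.

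Each library had between 74577660 and 85933945 reads assigned to genes. Levels are given as CPM (library counts rescaled to a common total, with trimmed mean of M values factors) and, where genes are compared with each other, as RPKM (CPM divided by the exon length in kilobases). The whole-gene count of Nrf1 was 9052 and 7789 reads in wildtype libraries and 8594 and 8284 in Nrf1-CKO libraries, with a log2 fold change of -0.03 and an adjusted p of 0.794 from edgeR. A count over the whole gene does not check the loss of exon 4. The libraries differed in their tissue markers. Retinal ganglion cell (RGC) genes were called lower for 10 of 12, with Thy1 called higher and a summed level of 3110 and 3540 CPM in wildtype libraries and 1350 and 1100 CPM in Nrf1-CKO libraries. Of the 12 progenitor genes, 3 (Hes5, Fgf15 and Ccnd1) were called lower, and their sum went from 8270 and 8910 to 6450 and 7030 CPM. All 12 lens genes were called higher, from 173 and 484 to 10000 and 4100 CPM, and so were all 10 macrophage genes, from 83.6 and 75.5 to 254 and 311 CPM. Pigment epithelium genes were called higher for 5 of 7, from 212 and 151 to 383 and 407 CPM, and periocular mesenchyme for 6 of 8, from 159 and 108 to 254 and 218 CPM. Endothelium genes were called higher for 6 of 8, with Kdr called lower, and their sum differed little, at 274 and 277 against 297 and 290 CPM. Of 4 erythroid genes tested, 2 were called higher, while Hba-a1 and Hbb-bt were at 0 in every library. The part of these shifts in cell content in the results below was not tested, and in bulk samples fewer cells of a type and less RNA per cell cannot be told apart.

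Of the 33 genes, 2 fell and 3 rose in Nrf1-CKO retinas, and the other 28 were not called. Those that fell were Idh1, the cytosolic NADP-dependent isocitrate dehydrogenase, and Pdp1, a phosphatase that activates pyruvate dehydrogenase. Those that rose were Pdk2 and Pdk4, kinases that inactivate pyruvate dehydrogenase, and Me1, the cytosolic malic enzyme. A gene was called when its fold change was at least 1.4 and its adjusted p was at most 0.2 by the quasi-likelihood F-test of edgeR, with the Benjamini-Hochberg method applied over all tested genes, which are the limits the study used. At these limits 20.9% of all tested genes were called, 8.04% lower and 12.8% higher. The shares among the 33 genes were 6.06% lower and 9.09% higher, near the background in either direction.

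The median log2 fold change of the 33 genes was -0.02, beside 0.00 over all tested genes, and the median size of the change irrespective of sign was 0.143, beside 0.219. The 95% confidence interval of the log2 fold change lay within 1.4-fold in either direction for 24 of the 33 genes (72.7%), beside 46.6% of all tested genes. These genes were also more abundant than most, with a median wildtype level of 64.2 CPM beside 22.2 CPM over all tested genes. The libraries of the genotypes did not overlap for 23 of the 33 genes (69.7%), 14 of them lower and 9 higher in Nrf1-CKO, beside 62.5% of all tested genes. For 9 genes the adjusted p was within 0.2 and the change was under 1.4-fold.

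**Figure D1:**
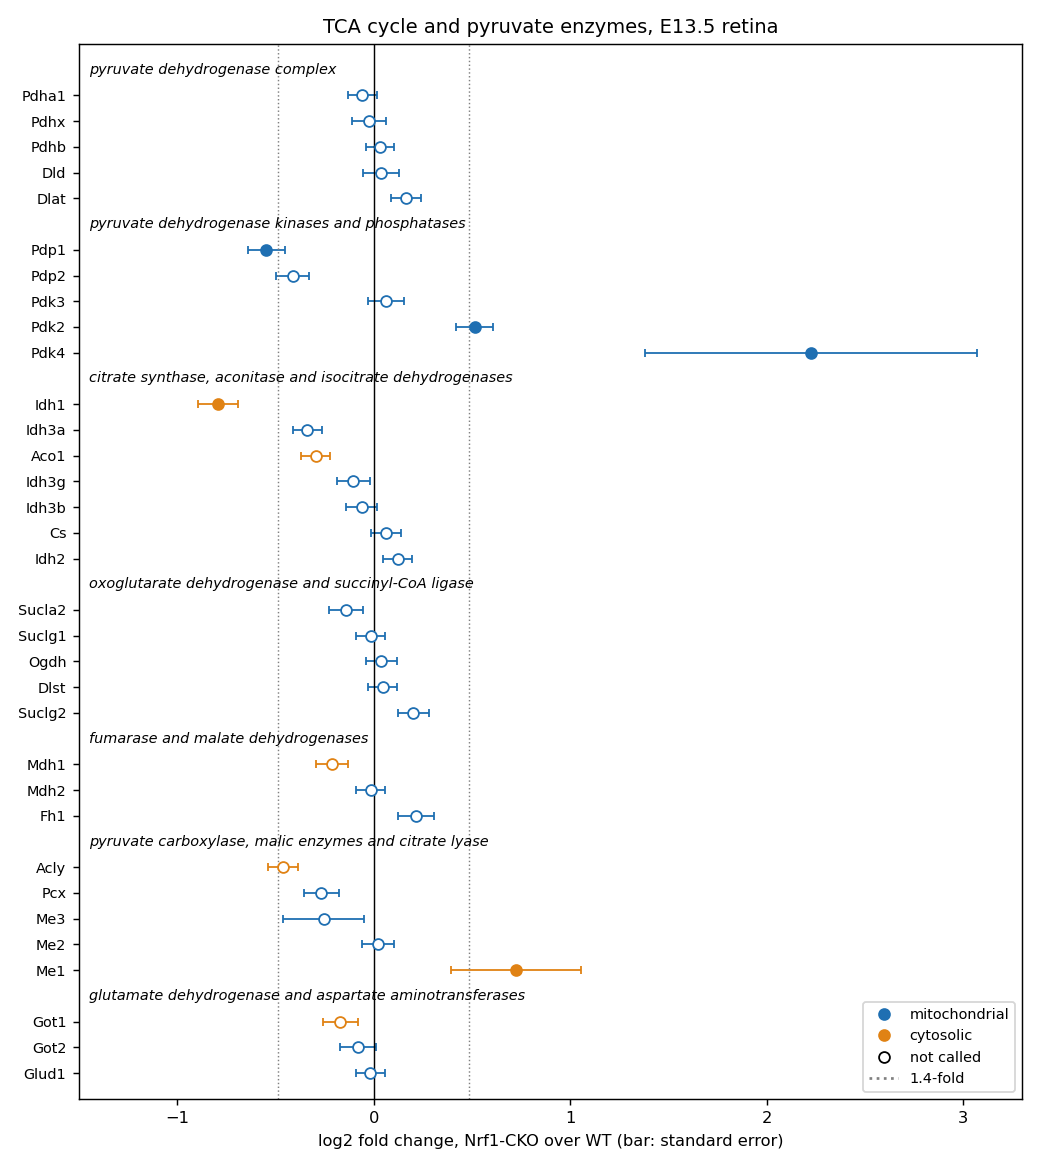
Log2 fold change (Nrf1-CKO over WT) of each of the 33 genes on the horizontal axis, grouped by role, with bars for the standard error, blue for mitochondrial and orange for cytosolic products, filled points for called genes and dotted lines at 1.4-fold. Most points lie between the dotted lines, Idh1 (-0.79) and Pdp1 (-0.55) lie to their left, and Pdk2 (0.51), Me1 (0.72) and Pdk4 (2.22) to their right.

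The pyruvate dehydrogenase complex turns pyruvate into acetyl-CoA. None of its 5 genes was called by edgeR, DESeq2 or limma, none had an unadjusted p under 0.05, and their log2 fold changes ran from -0.06 to 0.16. Pdha1, the catalytic E1 alpha subunit, stood at 101.5 and 101.3 CPM in wildtype libraries and at 98.63 and 96.17 CPM in Nrf1-CKO libraries. Of the exon bases of Pdha1, 16.1% are shared with the antisense gene Map3k15, and whether the counting used strand is not given in the sources used here. Pdhb, the E1 beta subunit, had 59.87 and 60.37 CPM against 61.03 and 61.82 CPM. Dlat, the E2 core that carries lipoate, was at 52.01 and 54.52 CPM against 61.27 and 57.92 CPM, a log2 fold change of 0.16 with an adjusted p of 0.177 from edgeR and an interval from -0.01 to 0.34. Dlat is thus the member of the complex with the greatest difference, and it stayed under 1.4-fold. Dld, the E3 subunit shared with oxoglutarate dehydrogenase, and Pdhx, which binds E3 to the core, overlapped between genotypes, at 0.04 and -0.03 on the log2 scale.

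Calls at this entry point fell on the regulators of that complex, in both directions. Of the 5 kinases and phosphatases in the set, 1 fell (20%), 2 rose (40%) and 2 were not called. Over all tested genes, 8.04% were called lower and 12.8% higher. A group of 5 genes is small, and its share of calls was not tested. None of these calls held with limma on the deposited values or in a test against the 1.4-fold limit itself. Pdp1 had 3045 and 2456 reads in wildtype libraries and 2007 and 1842 in Nrf1-CKO libraries. Both Nrf1-CKO libraries lay below both wildtype libraries in CPM, at 24.16 and 22.26 against 34.77 and 33.11. The level fell to 68.4% of wildtype, from 33.9 ± 1.17 to 23.2 ± 1.34 CPM (SD, n = 2), and the log2 fold change was -0.55 ± 0.094 (SE, edgeR adjusted p = 0.00348). Pdp2, the other catalytic phosphatase subunit, went from 39.8 ± 1.52 to 29.9 ± 0.579 CPM (SD, n = 2), without overlap. Its log2 fold change of -0.41 ± 0.085 (SE, edgeR adjusted p = 0.00816) was under the 1.4-fold limit, so it was not called.

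Among the kinases, Pdk2 had 1912 and 1745 reads in wildtype libraries and 2698 and 2668 in Nrf1-CKO libraries. It rose from 22.7 ± 1.2 to 32.4 ± 0.162 CPM (SD, n = 2), which is 143% of wildtype, and the log2 fold change was 0.51 ± 0.093 (SE, edgeR adjusted p = 0.00458). The genotypes did not overlap. Pdk3, which had the highest level per length of the kinases, overlapped between genotypes at 42.80 and 40.55 against 40.94 and 46.07 CPM. Pdk4, a kinase known to be induced by fasting and by fatty acids, was close to absent, with 3 and 12 reads in wildtype libraries and 28 and 47 in Nrf1-CKO libraries. Its log2 fold change was 2.22 ± 0.845 (SE, edgeR adjusted p = 0.0951), and with so few reads the interval ran from 0.30 to 4.15. Even in Nrf1-CKO retinas its mean level was 0.129 RPKM, beside 10.2 for Pdk2 and 17.0 for Pdk3.

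The calls of these kinases depended on single libraries. Without library WT 1 the log2 fold change of Pdk2 was 0.46, under the 1.4-fold limit, and that of Pdk4 was 1.48 with an adjusted p of 0.356 from edgeR. Without library Nrf1-CKO 2, Pdk4 was at 1.79 with an adjusted p of 0.407 from edgeR. It stayed called without library WT 2, at 3.67 with an adjusted p of 0.0877 from edgeR, and without library Nrf1-CKO 1, at 2.55 with an adjusted p of 0.139 from edgeR. Pdp1 remained called with any of the 4 libraries left out.

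Pdk1 and Pdpr belong to the same switch and came from a list of 34 linked genes that are not among the 33. Pdk1, the kinase known as a target of hypoxia-inducible factor, went the other way from Pdk2, from 8001 and 6258 reads to 4708 and 4691, and fell with a log2 fold change of -0.63 ± 0.078 (SE, edgeR adjusted p = 0.000656). Pdpr, the regulatory subunit of the phosphatase, was chosen for mention after its values were seen. It stood at 34.55 and 32.79 CPM in wildtype libraries and at 44.83 and 41.46 CPM in Nrf1-CKO libraries, 0.36 higher on the log2 scale with an adjusted p of 0.0175 from edgeR, under 1.4-fold. Per length, Pdk1 passed from 11.3 to 7.29 RPKM and Pdk2 from 7.17 to 10.2, so that the order of these mean levels was the opposite in the mutant. That order depends on the annotated exon lengths of 7779 bp for Pdk1 and 3163 bp for Pdk2. In CPM, Pdk1 stayed above Pdk2 in Nrf1-CKO retinas, at a mean of 56.7 against 32.4.

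**Figure D2:**
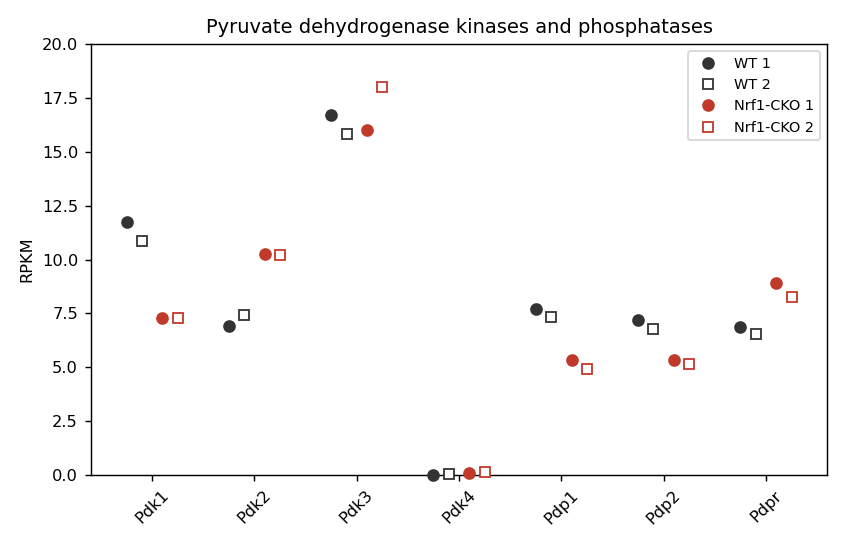
Levels of the kinases (Pdk1 to Pdk4), the catalytic phosphatase subunits (Pdp1, Pdp2) and the regulatory subunit (Pdpr) of pyruvate dehydrogenase in each library, in RPKM on a linear axis from 0. Black marks are wildtype and red marks Nrf1-CKO libraries. Pdk1, Pdp1 and Pdp2 are lower and Pdk2 and Pdpr higher in both Nrf1-CKO libraries, while Pdk3 overlaps and Pdk4 lies near 0 in all.

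The first steps of the cycle make citrate and oxidise isocitrate. Of the 7 genes of this group, Idh1 was called lower and the other 6 were not called, with 5 below 0 and 2 above. Idh1 lies on chromosome 1 from 65158616 to 65186500 (GRCm38, minus strand) and had 23711 and 19068 reads in wildtype libraries against 13878 and 11356 in Nrf1-CKO libraries. The lowest wildtype library was at 257 CPM and the highest Nrf1-CKO library at 167 CPM. Its level in Nrf1-CKO retinas was 57.7% of wildtype, the steepest drop of the 33 genes, and the log2 fold change was -0.79 ± 0.10 (SE, edgeR adjusted p = 0.000794) with a 95% interval from -1.03 to -0.56. Leaving out each library in turn gave values from -0.94 to -0.66, all of them called.

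The mitochondrial partner of Idh1 did not share this drop. Idh2, which makes NADPH in the matrix, had 17044 and 14771 reads in wildtype libraries and 17601 and 17914 in Nrf1-CKO libraries. Both Nrf1-CKO libraries lay above both wildtype libraries in CPM, and the log2 fold change of 0.12 had an adjusted p of 0.289 from edgeR and an interval from -0.05 to 0.29. The intervals of Idh1 and Idh2 do not overlap.

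Idh3, the NAD-dependent enzyme of the cycle proper, is built from alpha, beta and gamma subunits. Idh3a, the catalytic subunit, went from 57.6 ± 0.523 to 45.6 ± 1.35 CPM (SD, n = 2) without overlap, a log2 fold change of -0.34 ± 0.075 (SE, edgeR adjusted p = 0.0118) that was under 1.4-fold and was not called. Its partners Idh3b and Idh3g stood at -0.06 and -0.11, with adjusted p of 0.623 and 0.424 from edgeR. Aco1, the cytosolic aconitase that also acts as an iron regulatory protein, was at 120.3 and 125.8 CPM in wildtype libraries and at 97.97 and 102.4 CPM in Nrf1-CKO libraries, a log2 fold change of -0.30 with an adjusted p of 0.0229 from edgeR, again under 1.4-fold. Cs, citrate synthase, which opens the cycle and is often used as a measure of mitochondrial content, had 289.4 and 276.6 CPM in wildtype libraries and 287.9 and 302.5 CPM in Nrf1-CKO libraries. The genotypes overlapped for Cs, and the interval of its log2 fold change ran from -0.12 to 0.24.

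The later matrix steps differed little. None of the 5 genes of oxoglutarate dehydrogenase and succinyl-CoA ligase was called by edgeR, DESeq2 or limma, 1 (Suclg2) had an unadjusted p under 0.05, and all their 95% intervals lay within 1.4-fold. Ogdh, the E1 subunit that decarboxylates 2-oxoglutarate, was at 227.1 and 236.6 CPM in wildtype libraries and at 231.0 and 245.1 CPM in Nrf1-CKO libraries, which overlap. Dlst, its E2 subunit, had a log2 fold change of 0.04. The ligase has a shared alpha subunit, Suclg1 (-0.015 on the log2 scale, overlapping), and alternative beta subunits that use ADP or GTP. Sucla2, the ADP-forming beta subunit, stood at 60.96 and 54.79 against 54.33 and 50.52 CPM, a log2 fold change of -0.14 with an adjusted p of 0.281 from edgeR. Suclg2, the GTP-forming beta subunit, stood at 37.22 and 37.33 against 42.59 and 43.10 CPM, a log2 fold change of 0.20 with an adjusted p of 0.106 from edgeR. The beta subunits thus stood on opposite sides of 0, each by less than 1.4-fold, and a difference between them was not tested.

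Because Nrf1 is known to bind GC-rich sites in promoters, the core letters GCGCATGCG and the looser GCGCANGCG were searched on either strand in the RefSeq windows (GRCm38.p6) that reach from 250 bases before to 50 bases after each start. A window was available for 30 of the 33 genes, all but Idh3a, Pdp1 and Me2. The exact core, which also counts as a match of the looser form, was found in 1 of the 30 (3.33%), beside 3.66% of 11602 tested genes with a window. The looser form was found in 3 of the 30 (10%), Ogdh, Sucla2 and Dld, beside 13.6%. The windows of Idh1, Pdk2, Pdk4 and Me1 held neither, which says only that these letters are not in those windows. The bases around the exact match of Ogdh are shown because it is the only gene of the set that holds it. They lie on the plus strand at chr11:6292513-6292557, end just before a RefSeq start, and have the core in capitals.
Ogdh: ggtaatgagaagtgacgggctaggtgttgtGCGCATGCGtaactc
The level of Ogdh differed by a log2 fold change of 0.04 ± 0.078 (SE, edgeR adjusted p = 0.777). None of the genes with a match was called.

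Fumarase and malate dehydrogenase close the cycle. Fh1, fumarase, whose single gene serves the matrix and the cytosol and which is counted here as mitochondrial, stood at 68.63 and 59.71 CPM in wildtype libraries and at 71.87 and 76.97 CPM in Nrf1-CKO libraries. Its log2 fold change of 0.21 had an adjusted p of 0.130 from edgeR and an interval from 0.01 to 0.42, under 1.4-fold, and it was 0.12 without library WT 2 and 0.32 without library WT 1. Mdh2, the matrix malate dehydrogenase, overlapped between genotypes at 153.1 and 160.0 against 154.7 and 154.8 CPM. Mdh1, its cytosolic counterpart in the malate-aspartate shuttle, was at 220.3 and 198.5 against 184.1 and 177.5 CPM, without overlap. The log2 fold change of Mdh1 was -0.21 ± 0.082 (SE, edgeR adjusted p = 0.102) and was not called, and it was -0.13 without library WT 1.

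The steps of the cycle that the matrix runs can be read together as Cs, the Idh3, Ogdh and succinyl-CoA ligase subunits, Fh1 and Mdh2. None of these 12 genes was called by edgeR, DESeq2 or limma, 3 had an unadjusted p under 0.05, 6 lay below 0 and 6 above, and the median log2 fold change was 0.01. Their summed level was 1412 and 1386 CPM in wildtype libraries and 1382 and 1437 CPM in Nrf1-CKO libraries, so that the genotypes overlapped. Other genes of the cycle were on the linked list. Sdha, the flavoprotein subunit of succinate dehydrogenase, had 17084 and 12858 reads against 11924 and 10578, a log2 fold change of -0.44 ± 0.092 (SE, edgeR adjusted p = 0.00886) that stayed under 1.4-fold. It would have passed without library WT 2 (-0.52) or without library Nrf1-CKO 1 (-0.53). Its partners Sdhb, Sdhc and Sdhd stood at -0.09, -0.11 and -0.05, and Dhtkd1, a relative of Ogdh that acts in lysine breakdown, at 0.43 with an adjusted p of 0.0915 from edgeR. None of these 5 genes was called by edgeR, DESeq2 or limma, and 2 had an unadjusted p under 0.05.

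Of the 5 enzymes that fill the cycle or draw on it, 1 (Me1) was called higher by edgeR and DESeq2 but not by limma. None was called lower by any of these, while 2 lower (Acly and Pcx) had an unadjusted p under 0.05 from edgeR. Acly, which splits exported citrate into cytosolic acetyl-CoA for lipid synthesis and histone acetylation, was the most abundant of the 33 genes per length. It had 54785 and 46652 reads in wildtype libraries and 38058 and 37385 in Nrf1-CKO libraries. The levels were 627 ± 2.41 against 455 ± 4.42 CPM (SD, n = 2), far apart beside the spread within a genotype. The log2 fold change was -0.46 ± 0.076 (SE, edgeR adjusted p = 0.00277) with an interval from -0.64 to -0.29, so the estimate missed the 1.4-fold limit of 0.485 on the log2 scale and Acly was not called. Pcx, pyruvate carboxylase, which refills oxaloacetate, was at 62.00 and 61.67 against 47.33 and 55.43 CPM, a log2 fold change of -0.27 with an adjusted p of 0.0682 from edgeR, under 1.4-fold. Pcx stood at -0.16 with an adjusted p of 0.278 without Nrf1-CKO 1 and at -0.39 with an adjusted p of 0.00853 without Nrf1-CKO 2, both from edgeR.

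Of the malic enzymes, which turn malate into pyruvate, Me1 was called higher. It had 204 and 92 reads in wildtype libraries and 256 and 235 in Nrf1-CKO libraries, and both Nrf1-CKO libraries lay above both wildtype libraries at 3.08 and 2.84 against 2.33 and 1.24 CPM. Its log2 fold change of 0.72 ± 0.331 (SE, edgeR adjusted p = 0.158) had a 95% interval from -0.03 to 1.48, which includes 0. The call rested on library WT 2, since without it the log2 fold change was 0.35 with an adjusted p of 0.500 from edgeR, and without library Nrf1-CKO 1 the adjusted p from edgeR was 0.264. Without library WT 1 the log2 fold change of Me1 was 1.26 with an adjusted p of 0.0454 from edgeR, and it stayed called. Me2, a mitochondrial malic enzyme and the most abundant of this family per length, overlapped between genotypes at 42.87 and 44.21 against 45.40 and 42.99 CPM. Me3, another mitochondrial form, was sparse, with 381 and 296 reads against 269 and 310 and an interval from -0.72 to 0.21.

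Glutamate and aspartate connect the cycle to amino acids. Glud1, glutamate dehydrogenase, stood at 108.9 and 108.7 CPM in wildtype libraries and at 106.1 and 109.0 CPM in Nrf1-CKO libraries, which overlap. Got1, the cytosolic aspartate aminotransferase, was at 42.98 and 38.33 against 35.75 and 36.43 CPM, a log2 fold change of -0.17 with an adjusted p of 0.213 from edgeR. Got2, the mitochondrial form, overlapped at 144.8 and 143.4 against 124.6 and 147.6 CPM, and 9.0% of its exon bases are shared with the antisense gene Gm45760. Got2 also has a named pseudogene, Got2-ps1, with which it may share reads. None of these 3 genes was called by edgeR, DESeq2 or limma, or had an unadjusted p under 0.05.

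The comparison of compartments asked whether mitochondrial and cytosolic members moved alike. Of the 27 mitochondrial genes, 14 had log2 fold changes below 0 and 13 above, the median was -0.015, and 1 (Pdp1) was called lower and 2 (Pdk2 and Pdk4) higher. All 3 are regulators and not enzymes of the cycle. The summed level of the 27 was 2362 and 2335 CPM in wildtype libraries and 2306 and 2394 CPM in Nrf1-CKO libraries, which overlap. Of the 6 cytosolic genes, 5 were below 0 and 1 (Me1) above, with a median of -0.25, and Idh1 was called lower and Me1 higher. Their summed level was 1282 and 1250 CPM in wildtype libraries and 946 and 908 CPM in Nrf1-CKO libraries, lower in both, and Acly and Idh1 make up most of it. The genotypes did not overlap for 6 of 6 cytosolic and 17 of 27 mitochondrial genes (63%), beside 62.5% of all tested genes, so that the mitochondrial share is that of the background. A set of 6 genes is small, and these counts and medians are a description with no test.

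**Figure D3:**
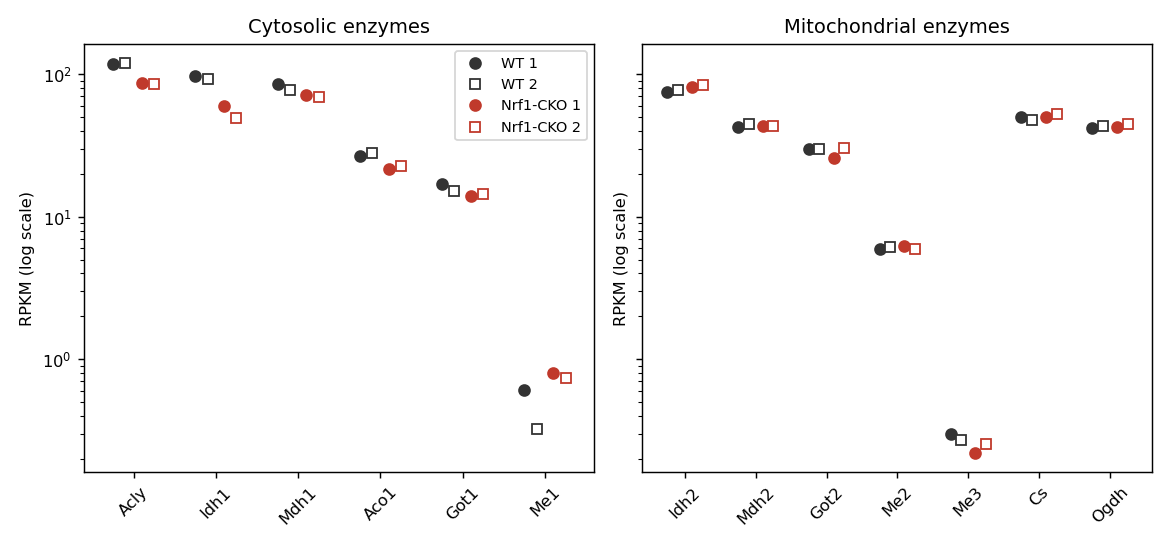
Levels of the 6 cytosolic enzymes (left) and of mitochondrial partners and matrix enzymes (right) in each library, in RPKM on a log axis. Acly, Idh1, Mdh1, Aco1 and Got1 lie lower and Me1 higher in both red Nrf1-CKO libraries than in both black wildtype libraries. On the right Mdh2, Got2, Me2, Cs and Ogdh overlap, while Idh2 lies higher and Me3 lower in both red libraries.

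Pairs of enzymes that act on the same substrate in either compartment, whatever their cofactor, allow the comparison within a library, where any scaling between libraries cancels. Per length, Idh1 stood at 97.7 and 92.8 RPKM in wildtype libraries, above Idh2 at 75.2 and 77.0. In Nrf1-CKO libraries the order was the opposite, with Idh1 at 60.3 and 49.5 and Idh2 at 81.9 and 83.7. The ratio of Idh1 to Idh2 was 1.30 and 1.21 in wildtype libraries and 0.736 and 0.592 in Nrf1-CKO libraries, a difference of -0.92 on the log2 scale. An exact permutation test of 2 against 2 libraries, two-sided, gave p = 0.333, which is the smallest value that this design allows.

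Of the 5 pairs compared in this way, 4 did not overlap between genotypes and reached that smallest exact p of 0.333, or 0.417 after Benjamini-Hochberg adjustment over the 5 pairs. Among single genes, 62.5% of all tested did not overlap, and no such share was taken for ratios. The ratio of Mdh1 to Mdh2 was 2.0 and 1.72 in wildtype libraries and 1.65 and 1.59 in Nrf1-CKO libraries, a difference of -0.19 on the log2 scale that was -0.09 without WT 1 and -0.30 without WT 2. Got1 to Got2 overlapped, at 0.564 and 0.508 against 0.545 and 0.469, with p = 0.667 in the exact permutation test. Me1 remained far below Me2 in every library, with ratios of 0.102 and 0.0529 in wildtype and 0.128 and 0.125 in Nrf1-CKO libraries. Against the sparse Me3 the ratio of Me1 was 2.03 and 1.18 in wildtype and 3.62 and 2.88 in Nrf1-CKO libraries. Ratios above 1 depend here on the exon lengths, 3848 bp for Me1 and 14624 bp for Me3, since Me3 had more reads in every library. The ratios to Me2 and to Me3 share Me1 and its low count in library WT 2. Without that library the differences from wildtype went from 0.78 to 0.30 for Me2 and from 1.06 to 0.67 for Me3 on the log2 scale.

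**Figure D4:**
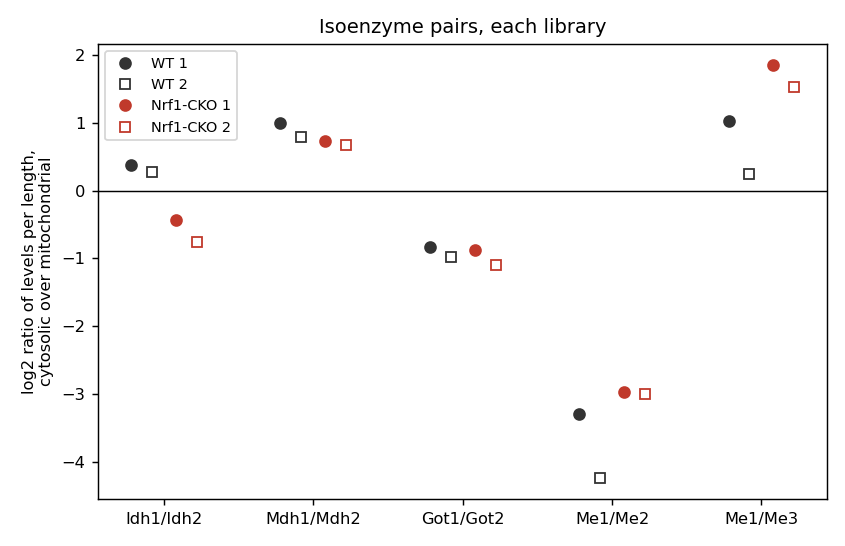
Log2 ratio of the cytosolic to the mitochondrial enzyme, per length, in each library for 5 pairs, with the line at 0 marking equal levels and red marks for Nrf1-CKO libraries. Only Idh1/Idh2 crosses the line, from above it in both wildtype libraries (ratios 1.30 and 1.21) to below it in both Nrf1-CKO libraries (0.736 and 0.592).

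The linked list of 34 genes held succinate dehydrogenase, carriers, lactate dehydrogenases and neighbouring enzymes. Pck1, the cytosolic phosphoenolpyruvate carboxykinase, had 2 reads in all and was not tested. Of the other 33, 2 were called lower (6.06%) and none higher by edgeR, DESeq2 or limma. Over all tested genes, edgeR called 8.04% lower and 12.8% higher. Of these linked genes, 6 lower and 5 higher had an unadjusted p under 0.05 from edgeR, and the median log2 fold change was -0.09. The genes called lower were Pdk1 and Ldha, the lactate dehydrogenase subunit that favours making lactate. Ldha had 46394 and 39249 reads in wildtype libraries and 27260 and 23710 in Nrf1-CKO libraries, a log2 fold change of -0.79 ± 0.090 (SE, edgeR adjusted p = 0.000439). Both of these genes remained called with any library left out. 

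The calls near the limits depended on the measure. Testing the deposited normalised log2 values with limma called Idh1 (-0.77) alone, while Pdp1 (-0.45), Pdk2 (0.42), Me1 (0.29) and Pdk4 (0.29) were each under 1.4-fold on that scale. A test against the 1.4-fold limit itself with edgeR's glmTreat also called Idh1 alone of the 33.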

How the data were processed

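RNA of pooled E13.5 retinas was sequenced by the authors as paired-end reads, aligned to mm10 with TopHat and counted per gene with HTSeq. The deposited counts are raw reads per gene. The authors also deposited normalized values on a log2 scale, whose method is not given in the sources used here. The 5 HTSeq summary rows, 74 to 75% of all entries, were left out. The table's symbols were matched to GENCODE M21 (GRCm38) for exon lengths, which may differ from the annotation used for counting.

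Counts were filtered with filterByExpr (minimum count 10), scaled by TMM, and fitted with edgeR 4.0.16 (glmQLFit and glmQLFTest, R 4.3.3). The study itself ran another test with the same limits of fold and adjusted p. Alternatives used DESeq2 1.42.0 and limma 3.58.1. The fit was also run on simulated counts, with the outcome not reported here. Pairs of libraries within a genotype differed by more than counting noise (chi-square per gene 45.8 and 56.8), and the biological coefficient of variation was 12%. Confidence intervals are of 95%, from the standard error of the fit.

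The members, gene lists and tests were chosen with earlier results of these data known. All 33 members, the called linked genes and other genes of the cycle are named, and 1 linked gene is not reported here. Pooling, TMM and read assignment bear on the values, since reads shared between similar genes go uncounted.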

Additional observations from a re-analysis of the deposited data

How the results depend on the processing

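The members called were the same 2 lower and 3 higher under library-size, upper-quartile and marker-free scaling, DESeq2, the exact test and no filter. Requiring 10 counts in every library removed Pdk4. The number lower was 1 with limma on deposited values and 1 with glmTreat, and the number higher was 0 with limma, 1 at an adjusted p of 0.05 and 0 with glmTreat. Leaving out each library gave 2 lower and 1 to 2 higher. Over all genes, calls were 1268 lower and 2024 higher, against 723 and 945 with limma and 743 and 1188 with glmTreat. Of the linked genes, 2 to 4 were lower and 0 to 1 higher without a library. Sdha and Acss2 passed without WT 2, Sdha and D2hgdh (lower) and Pck2 (higher) without Nrf1-CKO 1, D2hgdh without WT 1, and Dhtkd1 (0.50) without Nrf1-CKO 2.

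The mitochondrial median of -0.015 was -0.035 with library size only, 0.025 with upper-quartile scaling, and -0.019 to 0.013 with a library left out, and the cytosolic median of -0.254 was -0.274, -0.215, and -0.271 to -0.228 under the same settings. The ratio of Got1 to Got2, in an alternative added after seeing the data, ran from -0.191 to 0.026, reversed without Nrf1-CKO 2. Signs also turned for genes near 0. With upper-quartile scaling Suclg1 was 0.025, Mdh2 0.023, Pdhx 0.015 and Glud1 0.022. With a library left out, Ogdh ran from -0.007 to 0.081, Dld from -0.066 to 0.157, Suclg1 from -0.044 to 0.013, Mdh2 from -0.045 to 0.019, Pdhx from -0.073 to 0.033, Pdk3 from -0.028 to 0.145, Me2 from -0.017 to 0.059, Glud1 from -0.039 to 0.002 and Got2 from -0.211 to 0.036. The cause of these changes was not tested.

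With the replicate number as a block, 2 members were lower and 3 higher, and 1256 and 1970 of all genes. Same-numbered libraries did not deviate together (correlation -0.0025), so the numbers are not taken to pair them. The members with few reads (Pdk4, Me1 and Me3) had the widest intervals.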
